A study of Mus musculus with 24 samples.

Results

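Acod1 and 8 genes of the tricarboxylic acid (TCA) cycle, Cs, Aco1, Idh2, Idh3a, Ogdh, Sdha, Sdhb and Mdh2, were followed in primary murine bone marrow-derived macrophages (BMDMs). They are the 9 rows with these symbols among the 35770 named genes of the deposited table, and they were listed by name and not by their values. BMDMs from C57BL/6 mice, differentiated with M-CSF at 20 ng/mL, had been given control media or conditioned media (CM) from wild-type (WT), KEAP1 knockout (KO) or NRF2 KO cells of LL2, the Lewis lung carcinoma line. The media/vehicle, WT/vehicle, KEAP1 KO/vehicle and NRF2 KO/vehicle groups received vehicle, and the matching 4 groups received CDDO-Me at 100 nM, with 3 libraries in each of the 8 groups. CDDO-Me (bardoxolone methyl) is a synthetic oleanane triterpenoid that binds KEAP1 and activates the transcription factor NRF2. CM had been conditioned for 48 h and made up 75% of the culture, control media came from a plate without cancer cells, and RNA was taken after 24 h. The KO genes were edited in the cancer cells that conditioned the media. The macrophages carried no edited gene in any group, so each KO group stands for medium conditioned by an edited LL2 line. What the cancer cells released into the medium or took from it was not measured here. The labels describe the 3 libraries of a group as independent samples but do not say whether they came from separate mice, so p-values measure the spread between these samples.

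Acod1 (aconitate decarboxylase 1, also called Irg1) makes itaconate from cis-aconitate in the mitochondrial matrix and is known as a gene that macrophages switch on when activated by inflammatory signals. The TCA cycle oxidizes acetyl units. Citrate synthase (Cs) makes citrate, aconitase makes isocitrate through cis-aconitate, isocitrate dehydrogenases and the oxoglutarate dehydrogenase complex (Ogdh) remove carbon, succinate dehydrogenase (Sdha, Sdhb) oxidizes succinate to fumarate, and malate dehydrogenase (Mdh2) closes the cycle. Itaconate draws on the same intermediate that aconitase uses and is known to inhibit succinate dehydrogenase. Aco1 is the cytosolic aconitase, which without its iron-sulfur cluster binds RNA as iron regulatory protein 1. Idh2 makes NADPH in mitochondria, whereas Idh3a is the catalytic subunit of the NAD-dependent enzyme.

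The values are TPM, in which the values of a library sum to a fixed total. They correct for transcript length, so levels can be compared between genes. The number of reads behind each library cannot be read from TPM and no interval that needs the depth is given. For the tests, TPM were scaled between libraries, log2 of the scaled TPM plus 1 was compared with limma, and p-values were adjusted over all 13661 genes tested. A change passed at an adjusted p under 0.05, and differences are in log2 units with their standard error (SE). The TPM listed for libraries, and statements of overlap, are before scaling. Values were divided by factors of 0.89 to 0.94 in WT CM/CDDO-Me against 0.97 to 1.02 in WT/vehicle. With KEAP1 KO CM the factors were 0.88 to 0.98 against 1.02 to 1.08. Falls with CDDO-Me therefore look larger, and rises smaller, in TPM than in the tested differences there. All 9 genes were tested, but Acod1 was above 1 TPM in only 11 of 24 libraries, 9 of which were from CM/CDDO-Me groups, so it entered the test through those groups.

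Replicate 3 of BMDMs in NRF2 KO CM stood apart from the other libraries, both with vehicle and with CDDO-Me. They listed 15702 and 16299 genes above 0 against 17817 to 18993 in the others, and mitochondrially encoded transcripts took 9.87% and 4.74% of their TPM against 1.54% to 3.32%. The 8 TCA genes summed to 502 and 588 TPM in them and to between 714 and 955 TPM in the other 22. Results are therefore given from the fit of 24 libraries, and, where leaving out these libraries changed a call of the 9 genes or a count of a list with CDDO-Me, also from a fit of 22 libraries over 13562 genes. The fit pools the spread of all groups, so these libraries also enter the error of comparisons that do not use them. In WT CM, for example, the SE of the CDDO-Me difference was 0.15 with 24 libraries and 0.05 with 22 for Cs, but 0.44 and 0.46 for Acod1.

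**Figure D1:**
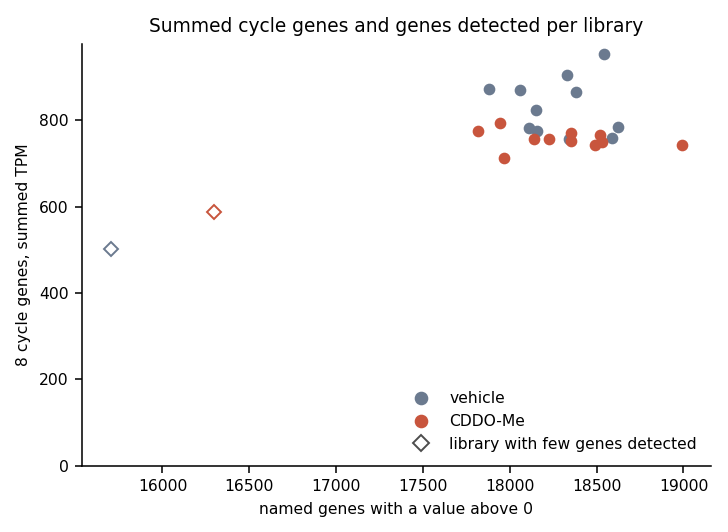
Summed TPM of the 8 TCA cycle genes (vertical axis) against the number of named genes with a value above 0 (horizontal axis), with 1 point per library, grey for vehicle and red for CDDO-Me. The open diamonds are replicate 3 of NRF2 KO CM with vehicle and with CDDO-Me, at 502 and 588 TPM, below the 714 to 955 TPM of the other 22.

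Macrophage markers (Adgre1, Csf1r, Cd68, Itgam, Fcgr1, Mertk and Lyz2) summed to between 14888 and 38321 TPM in every library. Fibroblast genes were also present, at 208 to 951 TPM in the CDDO-Me groups of WT CM and KEAP1 KO CM and at 663 to 1796 TPM in their vehicle groups. The summed neutrophil list was higher with CDDO-Me in these media, at 33.5 to 74.2 TPM against 11.1 to 36.1 TPM, with S100a8 the largest contributor to the difference, while Ly6g, Mpo and Elane were under 1 TPM in all 12 of these libraries. The summed dendritic list was at 2.42 to 5.16 TPM with CDDO-Me in these media against 0.62 to 1.11 TPM with vehicle, nearly all of the difference being Xcr1, with Flt3 at or near 0. The lymphocyte and epithelial lists summed to no more than 1.59 and 2.71 TPM in any library. With CDDO-Me, of 8 fibroblast markers tested 1 was lower in WT CM and 2 in KEAP1 KO CM (2 and 3 with 22 libraries). Of 4 neutrophil markers 1 was higher in each (S100a8), and of 2 dendritic markers 1 was higher in each (Xcr1), in both fits. Of the 7 macrophage markers 2 were higher and 1 lower in each (2 lower with 22 libraries). Among all genes, 27.9% passed with CDDO-Me in WT CM and 28.8% in KEAP1 KO CM (43% and 44.8% with 22 libraries). Whether the marker shifts bear on the results was not tested. In bulk RNA, fewer cells of a type and less RNA per cell cannot be told apart.

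Acod1 was close to undetected in vehicle-treated BMDMs and was between 29.2 and 331 TPM in the groups given CDDO-Me with CM from WT or KEAP1 KO cells. It was at 0.15, 0.027 and 0.26 TPM in media/vehicle, at 0.090, 0.039 and 0.31 TPM in WT/vehicle and at 0.22, 0.062 and 0.17 TPM in KEAP1 KO/vehicle BMDMs. With NRF2 KO CM and vehicle it was at 1.25, 0.33 and 0.62 TPM. With CDDO-Me, Acod1 was at 0.87, 0.54 and 1.97 TPM in media. All 15 of these libraries lay under 2 TPM, and the ranges of NRF2 KO/vehicle and media/CDDO-Me overlapped.

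In WT CM with CDDO-Me, Acod1 reached 41.8, 29.2 and 32.2 TPM. With KEAP1 KO CM and CDDO-Me it reached 331, 59.0 and 60.5 TPM, so that replicate 1 was far above its group. In NRF2 KO CM with CDDO-Me it was at 3.79, 4.42 and 3.64 TPM. The groups with CDDO-Me did not overlap, and ordered as media, NRF2 KO CM, WT CM and KEAP1 KO CM. The lowest WT CM/CDDO-Me library was 95.5-fold above the highest WT/vehicle library, and the same ratio was 269-fold for KEAP1 KO CM, 2.92-fold for NRF2 KO CM and 2.06-fold for media.

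**Figure D2:**
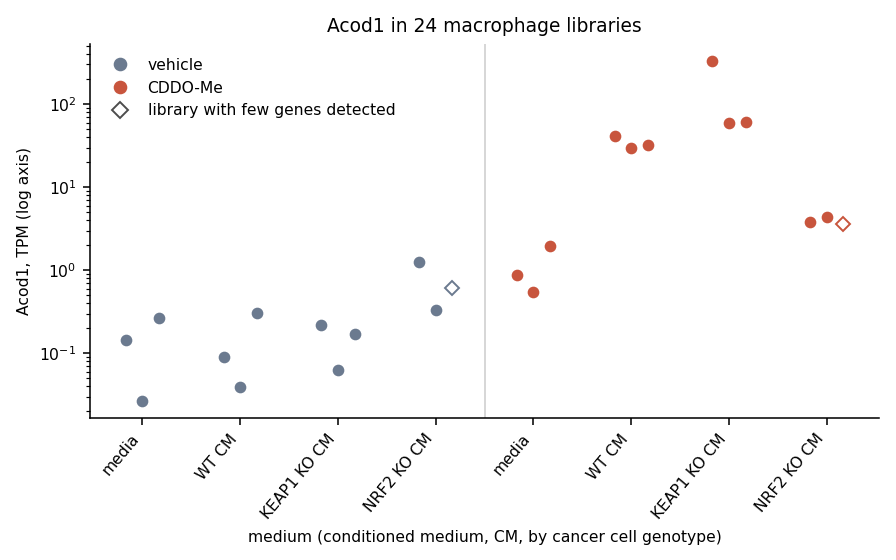
Acod1 in TPM on a log axis, with 1 point per library and 3 libraries per group, by medium along the horizontal axis, with vehicle (grey) at the left and CDDO-Me (red) at the right. The WT CM/CDDO-Me libraries sit between 29.2 and 41.8 TPM and the KEAP1 KO CM/CDDO-Me libraries between 59.0 and 331 TPM, while the highest vehicle library is at 1.25 TPM.

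Acod1 rose with CDDO-Me by 5.07 ± 0.44 (SE) log2 units in WT CM (adjusted p = 2.12e-08) and by 6.66 ± 0.44 in KEAP1 KO CM (adjusted p = 3.7e-10), and both calls held in every alternative and with every library left out. The log2 differences understate the change of a gene this low, because 1 was added to each value. In media the difference was 0.84 ± 0.44, which did not pass (adjusted p = 0.38), with a 95% confidence interval from -0.08 to 1.75. With 0.1 added in place of 1, the media difference was 2.27 ± 0.62 and passed in limma (adjusted p = 0.035). In NRF2 KO CM the difference with 1 added was 1.55 ± 0.44 and passed (adjusted p = 0.029). That call was lost without the libraries that stood apart (1.54 ± 0.56, adjusted p = 0.10), 1 from each compared group, where the SE was larger. It was also lost in 5 of the 6 fits that left out 1 library of these groups, where the adjusted p reached 0.087. The 5 were NRF2 KO/vehicle replicates 2 and 3 and each NRF2 KO CM/CDDO-Me replicate.

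The effect of CDDO-Me on Acod1 differed between media by tests of the difference itself. It was larger in WT CM than in media by 4.24 ± 0.62 log2 units (adjusted p = 4.7e-05), larger in KEAP1 KO CM than in media by 5.82 ± 0.62 (adjusted p = 9.6e-07), and larger in WT CM than in NRF2 KO CM by 3.53 ± 0.62 (adjusted p = 0.00036). The first 2 values share the media libraries and the first and last share the WT CM libraries, so they are not independent of each other. KEAP1 KO CM/CDDO-Me was above WT CM/CDDO-Me by 1.59 ± 0.44 log2 units, but this did not pass (adjusted p = 0.34), and neither did the difference between the CDDO-Me effects of these media (1.58 ± 0.62, unadjusted p = 0.019, adjusted p = 1).

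Acod1 (GENCODE annotation of GRCm39, the build the authors used) is a protein-coding gene on the plus strand of chromosome 14, from 103284413 to 103294009. An exon of the opposite-strand gene Gm41235 overlaps its exons, and since the labels do not say whether strand was kept, reads of this pair cannot be told apart. Its RefSeq promoter, 250 bases before to 50 bases after the start, is shown because Acod1 has by far the largest change, and those of Idh2, Sdha and Sdhb because these TCA genes moved in opposite directions. Capitals mark matches to 7 motifs searched on both strands and lower case marks the rest. The letters were listed on build GRCm38.p6 and each matched GRCm39 once, at the positions given.
Acod1 promoter, chr14:103284198-103284497, plus strand: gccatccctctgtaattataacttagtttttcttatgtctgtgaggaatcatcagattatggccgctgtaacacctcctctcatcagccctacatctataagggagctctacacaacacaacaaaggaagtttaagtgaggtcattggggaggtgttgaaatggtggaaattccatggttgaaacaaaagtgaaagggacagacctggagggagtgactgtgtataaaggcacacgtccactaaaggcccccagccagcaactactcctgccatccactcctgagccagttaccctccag
Idh2 promoter, chr7:79765049-79765348, minus strand: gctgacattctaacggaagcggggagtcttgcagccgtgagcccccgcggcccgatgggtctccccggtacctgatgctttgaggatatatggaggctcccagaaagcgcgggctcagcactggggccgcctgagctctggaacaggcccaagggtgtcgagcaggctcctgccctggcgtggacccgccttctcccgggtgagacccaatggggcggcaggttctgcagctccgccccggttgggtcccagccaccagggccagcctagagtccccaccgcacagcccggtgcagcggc
Sdha promoter, chr13:74498310-74498609, minus strand: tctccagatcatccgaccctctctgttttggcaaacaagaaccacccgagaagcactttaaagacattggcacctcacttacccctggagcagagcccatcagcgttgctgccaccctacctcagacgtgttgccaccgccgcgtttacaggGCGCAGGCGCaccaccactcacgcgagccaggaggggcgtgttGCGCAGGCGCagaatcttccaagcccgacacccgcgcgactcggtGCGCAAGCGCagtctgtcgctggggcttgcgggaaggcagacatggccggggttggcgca
Sdhb promoter, chr4:140688332-140688631, plus strand: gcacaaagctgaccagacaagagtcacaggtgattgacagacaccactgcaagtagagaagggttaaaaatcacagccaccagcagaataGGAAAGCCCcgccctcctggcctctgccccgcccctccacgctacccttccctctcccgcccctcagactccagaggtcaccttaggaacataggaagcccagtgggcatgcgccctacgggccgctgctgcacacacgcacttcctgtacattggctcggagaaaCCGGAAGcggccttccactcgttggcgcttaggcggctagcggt

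The motifs were an IRF type (GAAANNGAA, in 8.56% of 32851 promoters), a STAT type (TTCNNNGAA, 8.3%), an NF-kB type (GGGNNTTCC, 5.82%), an antioxidant response type (TGACNNNGC, 12.4%), an ETS type (CCGGAAG, 8.86%), an NRF1 type (GCGCNNGCG, 12.1%) and an ERR type (TCAAGGTCA, 0.423%). The Acod1 and Idh2 windows held none of these letters, which says nothing of other sites or other spacings. The Sdha window held the NRF1 type at 3 places, each read on both strands with 1 base of offset, starting 98, 55 and 10 bases before the start. The Sdhb window held the ETS type at base 7 after the start and the NF-kB type 160 bases before it. The table held promoters for 8 of the 9 genes, 13 in all with 6 for Ogdh, of which 2 held the NRF1 type, and the windows of Cs, Aco1 and Mdh2 held no match. The Acod1 window had 47% G and C and 2 CpG pairs, against 60% to 68.3% and 15 to 25 CpG pairs in the Idh2, Sdha and Sdhb windows and a median of 52.7% G and C over all promoters.

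CDDO-Me did not move the 8 TCA genes together. In WT CM, 5 of the 9 genes passed, 2 higher (Acod1 and Sdhb) and 3 lower (Idh2, Aco1 and Sdha), and in KEAP1 KO CM 6 passed, with Acod1 higher and Idh2, Aco1, Sdha, Idh3a and Mdh2 lower. Of all genes tested, 27.9% passed in WT CM, 14.4% higher and 13.4% lower, and 28.8% in KEAP1 KO CM, 14.4% higher and 14.3% lower, so broad changes are the background to these counts. The count in WT CM was 3 without WT/vehicle replicate 2 or WT CM/CDDO-Me replicate 1. Without scaling between libraries, the genes called in WT CM were 1 higher and 4 lower, the higher share of all calls was 39.1% in place of 51.8% in WT CM and 34.6% in place of 50.2% in KEAP1 KO CM, and the median of all genes moved to -0.12 and -0.17 log2 units. The median difference of the 9 genes was -0.20 in WT CM and -0.30 in KEAP1 KO CM against -0.01 and -0.02 over all genes.

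In media and NRF2 KO CM fewer genes passed, among these 9 as among all genes tested. In media 0 of the 9 genes passed in the limma fit, where 6.02% of all genes passed. Under an unadjusted p of 0.05 there were 0 of the 9 and 2187 of all genes. In NRF2 KO CM only Acod1 passed, where 9.61% of all genes did. In the fit of 22 libraries 8 of 9 genes passed in each of WT CM and KEAP1 KO CM, 3 higher (Acod1, Cs and Sdhb) and 5 lower (Idh2, Aco1, Idh3a, Sdha and Mdh2), where 43% and 44.8% of all genes passed. In the same fit 1 gene passed in media (Idh2, -0.20 ± 0.07, adjusted p = 0.045, against 14.9% of all genes) and 0 in NRF2 KO CM against 9.56%. Each NRF2 KO CM group had lost its replicate 3 in that fit, so its count rests on fewer libraries than the other media.

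**Figure D3:**
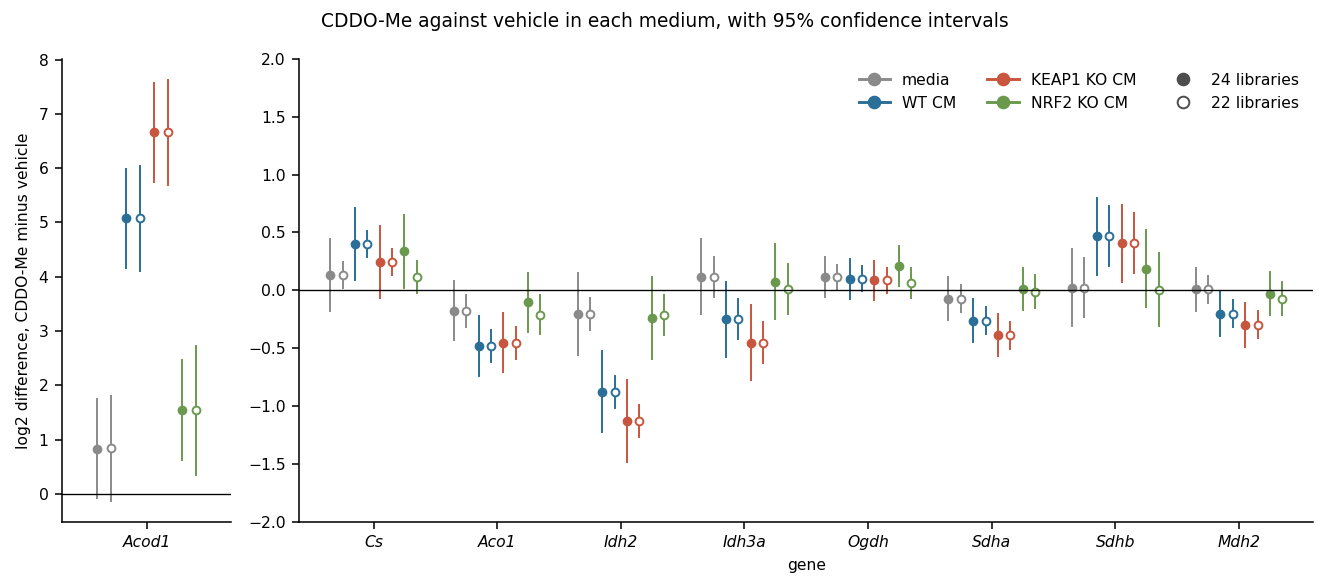
Log2 difference between CDDO-Me and vehicle (vertical axis) for Acod1 (left) and the 8 TCA cycle genes (right), by medium in color, with bars for 95% confidence intervals, filled points for the fit of 24 libraries and open points for that of 22. In WT CM and KEAP1 KO CM, Acod1, Cs and Sdhb lie above 0, Idh2, Aco1, Idh3a, Sdha and Mdh2 below 0 and Ogdh near 0, while most media and NRF2 KO CM intervals of the TCA genes include 0.

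Idh2, on the minus strand of chromosome 7 from 79741431 to 79765535, fell the most among the 8 TCA genes. It was at 72.6, 76.9 and 68.8 TPM in WT/vehicle and at 33.9, 37.2 and 36.1 TPM in WT CM/CDDO-Me BMDMs. Its level in KEAP1 KO CM was 75.7, 90.7 and 72.8 TPM with vehicle and 30.0, 34.0 and 31.3 TPM with CDDO-Me. The groups were apart by a wide margin in both media, and Idh2 fell by 0.88 ± 0.17 (SE) log2 units in WT CM (adjusted p = 0.00041) and by 1.13 ± 0.17 in KEAP1 KO CM (adjusted p = 2.4e-05). Both calls held in all alternatives and with each library left out.

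In media Idh2 was at 67.2, 65.2 and 67.2 TPM with vehicle and at 57.6, 61.9 and 51.5 TPM with CDDO-Me. The ranges did not overlap here either, but the difference of -0.20 ± 0.17 did not pass in the fit of 24 libraries (adjusted p = 0.71). In NRF2 KO CM it was at 62.8, 72.1 and 38.6 TPM with vehicle and at 52.7, 60.9 and 30.5 TPM with CDDO-Me, and the ranges overlapped (-0.24 ± 0.17, adjusted p = 0.48). The fall was larger in KEAP1 KO CM than in media by 0.93 ± 0.24 log2 units (adjusted p = 0.010). The corresponding value for WT CM against media was -0.67 ± 0.24 (adjusted p = 0.065), which passed in the fit of 22 libraries (adjusted p = 2.7e-05).

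The genes of the other isocitrate dehydrogenases differed in how they moved. Idh1, the cytosolic NADP-dependent enzyme, fell by 1.47 ± 0.16 log2 units in WT CM (adjusted p = 7.7e-07) and by 1.61 ± 0.16 in KEAP1 KO CM (adjusted p = 2.2e-07). Idh3a was at 36.7, 43.4 and 43.0 TPM in WT/vehicle and at 31.3, 31.4 and 31.3 TPM in WT CM/CDDO-Me BMDMs, a difference of -0.25 ± 0.15 that did not pass with 24 libraries (adjusted p = 0.28) but passed with 22 (adjusted p = 0.022). Idh3a in KEAP1 KO CM went from 45.1, 47.5 and 40.3 TPM to 27.0, 30.3 and 28.2 TPM and fell by 0.45 ± 0.15 (adjusted p = 0.033). That call was lost in 5 of 6 fits that left out 1 library, where the adjusted p reached 0.099, with KEAP1 KO/vehicle replicate 3 the exception.

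The ratio of Idh2 to Idh3a within a library does not depend on scaling. It was between 1.09 and 1.19 in the 6 libraries with CDDO-Me in WT CM or KEAP1 KO CM and between 1.38 and 2.20 in the other 18. Relative to Idh3a, Idh2 was thus lower in each of these 6 libraries than in any other. The regulatory subunits Idh3b and Idh3g differed by no more than 0.20 log2 units between CDDO-Me and vehicle in these media and did not pass with 24 libraries.

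Cs was higher with CDDO-Me in both media in the fit of 22 libraries. It was at 119, 122 and 119 TPM in WT/vehicle and at 148, 144 and 143 TPM in WT CM/CDDO-Me BMDMs, without overlap. The difference of 0.40 ± 0.15 log2 units did not pass with 24 libraries (adjusted p = 0.054) and passed with 22 (0.40 ± 0.05, adjusted p = 8.8e-06). With 24 libraries it lay close to the threshold and passed with size-factor (RLE) scaling (adjusted p = 0.041) and with a stricter filter (adjusted p = 0.0497). In KEAP1 KO CM, Cs was at 132, 138 and 119 TPM with vehicle and at 136, 135 and 139 TPM with CDDO-Me, where the TPM overlapped and the difference after scaling was 0.24 ± 0.15 (adjusted p = 0.26 with 24 libraries and 0.0012 with 22).

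Cs set against Idh2, as a ratio within a library, was between 3.88 and 4.55 in the 6 libraries with CDDO-Me and CM from WT or KEAP1 KO cells. It was between 1.53 and 1.74 in the vehicle libraries of these media, between 1.80 and 2.10 in media/CDDO-Me, and between 1.78 and 2.81 with CDDO-Me in NRF2 KO CM. The first of these ranges overlapped none of the others, and 3 libraries against 3 cannot give an exact permutation p under 0.1. Cs lies on the plus strand of chromosome 10 from 128172837 to 128198363, and exons of the opposite-strand genes Coq10a and Gm56959 overlap its own.

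Genes of the catalytic subunits of succinate dehydrogenase moved in opposite directions. Sdha, the flavoprotein subunit that binds succinate, was at 162, 168 and 172 TPM in WT/vehicle and at 121, 128 and 132 TPM in WT CM/CDDO-Me BMDMs, and fell by 0.26 ± 0.09 log2 units (adjusted p = 0.029). With KEAP1 KO CM it went from 172, 185 and 176 TPM to 115, 129 and 117 TPM and fell by 0.39 ± 0.09 (adjusted p = 0.0017). The groups did not overlap in either medium. The call in WT CM was lost in 4 of 6 fits that left out 1 library (adjusted p up to 0.12), those without replicate 2 or 3 of WT/vehicle and without replicate 1 or 2 of WT CM/CDDO-Me.

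Sdhb, the iron-sulfur subunit, was at 136, 143 and 162 TPM in WT/vehicle and at 193, 166 and 199 TPM in WT CM/CDDO-Me BMDMs. It rose by 0.47 ± 0.16 log2 units (adjusted p = 0.033), a call lost without scaling (0.34, adjusted p = 0.13) and in 4 of 6 fits that left out 1 library (adjusted p up to 0.15), those without replicate 1 or 2 of WT/vehicle and without replicate 1 or 3 of WT CM/CDDO-Me. With KEAP1 KO CM it went from 139, 147 and 149 TPM to 158, 164 and 194 TPM, also without overlap, and the difference of 0.41 ± 0.16 did not pass with 24 libraries (adjusted p = 0.063) and passed with 22 (adjusted p = 0.012).

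The Sdha to Sdhb ratio, which scaling cannot change, was between 0.60 and 0.79 in the 6 CDDO-Me libraries of WT CM and KEAP1 KO CM. It was between 1.06 and 1.26 in their vehicle libraries and between 0.89 and 1.45 in the 12 libraries of media and NRF2 KO CM. The membrane anchor Sdhd passed only with 22 libraries (0.46 in WT CM and 0.35 in KEAP1 KO CM), and Sdhc did not pass in either fit. Sdha lies on the minus strand of chromosome 13 from 74469359 to 74498436 and Sdhb on the plus strand of chromosome 4 from 140688502 to 140709380. Both share exon positions with opposite-strand genes, Sdha with Ccdc127 and Sdhb with Gm68265 and Gm68270. The same holds for Idh2 and Zfp710, Idh3a (chromosome 9, 54493575 to 54514730) and Acsbg1, and Ogdh and Gm72270, but not for Aco1 or Mdh2.

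Aco1 was at 46.5, 49.7 and 46.9 TPM in WT/vehicle and at 29.6, 31.9 and 31.4 TPM in WT CM/CDDO-Me BMDMs. The change in KEAP1 KO CM was from 48.9, 51.7 and 46.8 TPM to 29.3, 33.1 and 32.7 TPM. The groups did not overlap, and Aco1 fell by 0.48 ± 0.12 (adjusted p = 0.0052) and by 0.45 ± 0.12 log2 units (adjusted p = 0.0078), calls that held in all alternatives. Aco1 lies on the plus strand of chromosome 4 from 40142998 to 40199010.

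Of 5 listed genes of iron handling beside Aco1, 1 was higher and 1 lower in WT CM with CDDO-Me, and 2 were higher and 1 lower in KEAP1 KO CM. With 22 libraries 2 were lower in WT CM. Of all genes, 27.9% and 28.8% passed in these media (43% and 44.8% with 22 libraries). Tfrc, the transferrin receptor, whose transcript is bound and stabilized by iron regulatory proteins, fell (-3.51 and -3.54 log2 units). Slc40a1, the iron exporter ferroportin, rose by 1.29 and 1.75. The second iron regulatory protein gene, Ireb2, was among those that did not pass in either medium. In NRF2 KO CM, Tfrc differed by 0.67 with CDDO-Me in the fit of 24 libraries, which includes the libraries that stood apart. Of the 5 genes 2 were higher there in both fits, where 9.61% of all genes passed (9.56% with 22 libraries). The median over the 5 was 0.67 with 24 libraries and 0.42 with 22.

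Mdh2 and Ogdh are described last. Mdh2, on the plus strand of chromosome 5 from 135807292 to 135820882, was at 185 to 200 TPM in WT/vehicle against 152 to 156 TPM in WT CM/CDDO-Me BMDMs (-0.20 ± 0.09, adjusted p = 0.11, and 0.0065 with 22 libraries). In KEAP1 KO CM it went from 196 to 220 TPM with vehicle to 149 to 157 TPM with CDDO-Me and fell by 0.30 ± 0.09 log2 units (adjusted p = 0.016), which was lost without KEAP1 KO/vehicle replicate 1 (adjusted p = 0.067) or KEAP1 KO CM/CDDO-Me replicate 2 (adjusted p = 0.051). Ogdh, on chromosome 11 from 6241551 to 6309233, was between 62.8 and 75.0 TPM in every library except for NRF2 KO/vehicle replicate 3 at 49.0 TPM. Its CDDO-Me difference was 0.10 ± 0.08 in WT CM and 0.09 ± 0.08 in KEAP1 KO CM, with 95% confidence intervals from -0.07 to 0.27 and from -0.08 to 0.26.

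**Figure D4:**
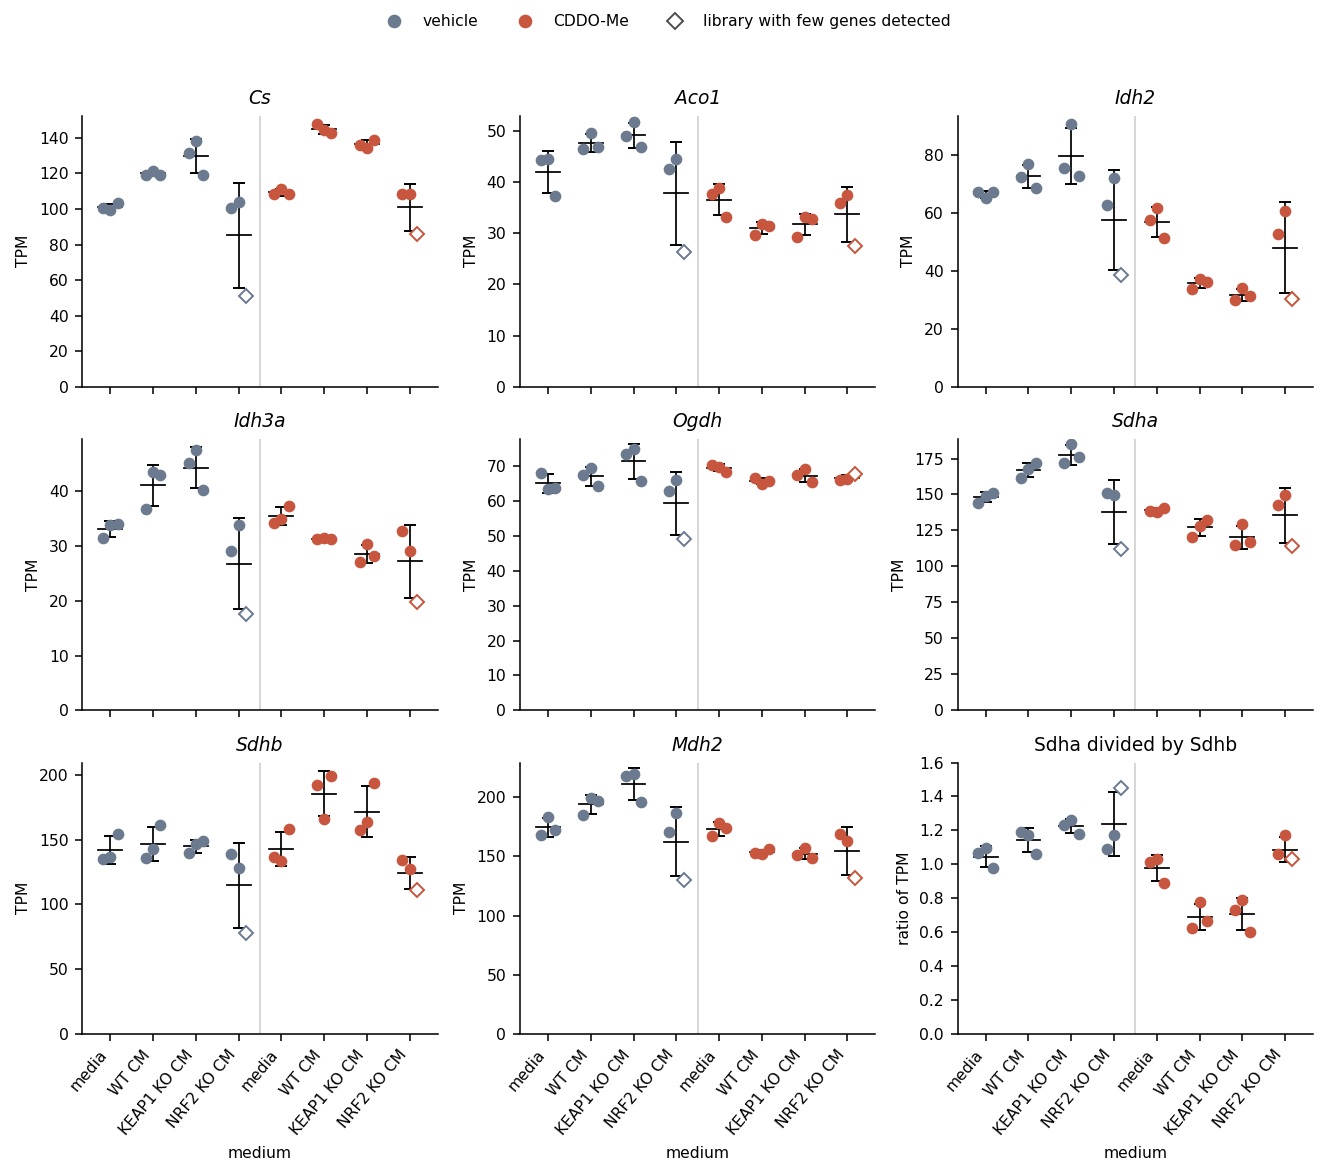
TPM of the 8 TCA cycle genes and, in the last panel, the ratio of Sdha to Sdhb, by medium along the horizontal axis, with vehicle (grey) left and CDDO-Me (red) right, 3 libraries per group and bars for the mean ± SD. Idh2 is at 30.0 to 37.2 TPM with CDDO-Me in WT CM and KEAP1 KO CM against 68.8 to 90.7 TPM in their vehicle groups, the Sdha to Sdhb ratio is at 0.60 to 0.79 there, and the open diamonds mark the libraries with few genes detected.

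With vehicle, whether the TCA genes passed between CM and media depended on the fit. In the fit of 24 libraries, 0 of the 9 genes passed between WT/vehicle and media/vehicle BMDMs and 0 between KEAP1 KO/vehicle and media/vehicle, where 7.23% and 8.06% of all genes passed. In each, 4 of the 9 were under an unadjusted p of 0.05 in limma, as were 2443 and 2593 of all 13661 genes. With 22 libraries 6 genes passed in each, Cs, Aco1, Idh2, Idh3a, Sdha and Mdh2, all higher with CM, where 18.8% and 21% of all genes passed. The calls were 4 in each comparison when only the 2 compared groups were fitted, where 16.7% and 17.9% of all genes passed.

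Cs, for example, was at 100.4, 99.3 and 103 TPM in media/vehicle and at 119 to 122 TPM in WT/vehicle BMDMs, without overlap, a difference of 0.32 in both fits with an SE of 0.15 with 24 libraries (adjusted p = 0.27) and 0.05 with 22 (adjusted p = 0.00046). Idh3a differed by 0.37 in WT CM and 0.41 in KEAP1 KO CM. Sdha, at 144, 149 and 151 TPM in media/vehicle, differed by 0.24 and 0.26. Acod1, Ogdh and Sdhb did not pass in either fit in these comparisons, and Acod1 differed by 0.01 in both.

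NRF2 KO CM was also compared with the other media. With vehicle, 0 of the 9 genes passed against media in either fit, and a single gene of all those tested passed (0.00732% with 24 libraries and 0.00737% with 22). In the limma fit of 24 libraries, 2 of the 9 and 1650 of all genes were under an unadjusted p of 0.05. WT/vehicle against NRF2 KO/vehicle BMDMs gave 5 genes, Cs, Aco1, Idh3a, Sdha and Mdh2, all higher with WT CM, where 10.6% of all genes passed. KEAP1 KO/vehicle against NRF2 KO/vehicle gave 6, these and Ogdh, where 9.04% passed.

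NRF2 KO/vehicle replicate 3 carried part of these differences. Cs was at 100.5, 104 and 51.0 TPM in that group, and without the libraries that stood apart its difference from WT/vehicle went from 0.63 ± 0.15 to 0.34 ± 0.06 log2 units (adjusted p = 0.010 and 0.00090). Idh3a, at 29.0, 33.8 and 17.6 TPM with NRF2 KO CM and vehicle, differed from WT/vehicle by 0.71 with 24 libraries and by 0.49 with 22, and Sdha by 0.36 and 0.26. With 22 libraries 6 genes passed in each comparison, where 15.4% and 13.2% of all genes passed. For WT CM these were Cs, Aco1, Idh2, Idh3a, Sdha and Mdh2, and for KEAP1 KO CM Ogdh and Idh2 passed and Aco1 did not. With WT CM the count was 3 without WT/vehicle replicate 2, 2 without WT/vehicle replicate 3 and 3 without NRF2 KO/vehicle replicate 3, and with only the 2 compared groups fitted it was 0 in both comparisons, where 1.35% and 1.07% of all genes passed.

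KEAP1 KO CM was compared with WT CM, and none of the 9 genes passed in the fits of 24 and 22 libraries. With vehicle 0 genes passed in limma, with 0 of the 9 and 350 of all genes under an unadjusted p of 0.05, and 0% of all genes passed. The differences lay between -0.08 (Sdhb) and 0.06 (Idh2), and the 95% confidence interval of the latter ran from -0.29 to 0.41. With CDDO-Me 0 of the 9 genes passed again, where 0.0439% of all genes did, and the largest difference was that of Acod1, which passed in 1 alternative, with array weights (1.87, adjusted p = 0.025). The CDDO-Me effect itself differed between these media for 0 of all genes (0%), with 224 under an unadjusted p of 0.05.

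Among BMDMs given CDDO-Me, those with CM were also compared with those in media. In WT CM 4 of the 9 genes passed, Acod1 (4.25 ± 0.44), Cs (0.59 ± 0.15) and Sdhb (0.56 ± 0.16) higher and Idh2 (-0.48 ± 0.17) lower, where 26.8% of all genes passed. Cs was at 108, 111 and 108 TPM in media/CDDO-Me and at 143 to 148 TPM in WT CM/CDDO-Me BMDMs (adjusted p = 0.0059). The Idh2 call (adjusted p = 0.041) was lost with each of the 6 libraries left out in turn (adjusted p up to 0.12), and that of Sdhb (adjusted p = 0.012) without media/CDDO-Me replicate 2 or WT CM/CDDO-Me replicate 1 or 3 (adjusted p up to 0.064). Only Acod1 and Cs were thus called in all 6 of these fits, and the count fell to 2 in the 3 fits in which Sdhb was lost as well.

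In KEAP1 KO CM 3 genes passed, Acod1 (5.83 ± 0.44), Cs (0.47 ± 0.15) and Idh2 (-0.67 ± 0.17), where 22.6% of all genes passed. With 22 libraries, 4 passed in each comparison, the same 3 and Sdhb, where 43.8% and 39.3% of all genes passed. The Cs calls were lost without scaling (0.40 and 0.32, adjusted p = 0.087 and 0.20), where the median of all genes moved to -0.16 and -0.15, and in KEAP1 KO CM also with replicate 1 or 3 of that group or replicate 1 or 2 of media/CDDO-Me left out (adjusted p up to 0.10). In NRF2 KO CM 0 of the 9 genes passed, where 0.19% of all genes did. Under an unadjusted p of 0.05 in limma there were 2 of the 9 and 1000 of all genes.

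The CDDO-Me effects were then compared between media for all 9 genes. Against media, 1 gene passed for WT CM (Acod1) and 2 for KEAP1 KO CM (Acod1 and Idh2), where 15.3% and 14.8% of all genes passed, and 1 passed for WT CM against NRF2 KO CM (Acod1), where 13.4% did. For NRF2 KO CM against media 0 passed, with 0 of the 9 and 359 of all genes under an unadjusted p of 0.05 and 0% passing. With 22 libraries, 5 genes passed for WT CM against media (Acod1, Cs, Idh2, Aco1 and Idh3a), 6 for KEAP1 KO CM against media (Acod1, Idh2, Aco1, Idh3a, Sdha and Mdh2) and 4 for WT CM against NRF2 KO CM (Acod1, Cs, Idh2 and Sdha), where 28.3%, 29.1% and 21.1% of all genes passed.

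A list of 13 further enzymes and subunits of the cycle, with the cytosolic Idh1 among them, was read. With CDDO-Me, 27.9% of all genes passed in WT CM and 28.8% in KEAP1 KO CM (43% and 44.8% with 22 libraries). In media 6.02% passed and in NRF2 KO CM 9.61% (14.9% and 9.56% with 22 libraries). These shares are the background to the counts of this list and of those that follow. With CDDO-Me, 0 were higher and 2 lower in WT CM and in KEAP1 KO CM, Idh1 and Suclg2 both times, with a median of -0.05 and -0.06 log2 units over the 13. Suclg2, the GDP-forming subunit of succinyl-CoA synthetase, fell (-0.56 and -0.72), and also fell by 0.82 in NRF2 KO CM, where it was the only one of the 13 to pass. With 22 libraries 3 were higher and 4 lower in WT CM and 2 higher and 5 lower in KEAP1 KO CM, Fh1 (fumarate hydratase) being lower (-0.67 and -0.49). In media 0 of the 13 passed with 24 libraries and Idh3b (-0.17) with 22. Of 4 assembly factors of succinate dehydrogenase, 0 passed in any medium with 24 libraries, while with 22 libraries 1 was higher in WT CM and 2 were lower in KEAP1 KO CM.

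**Figure D5:**
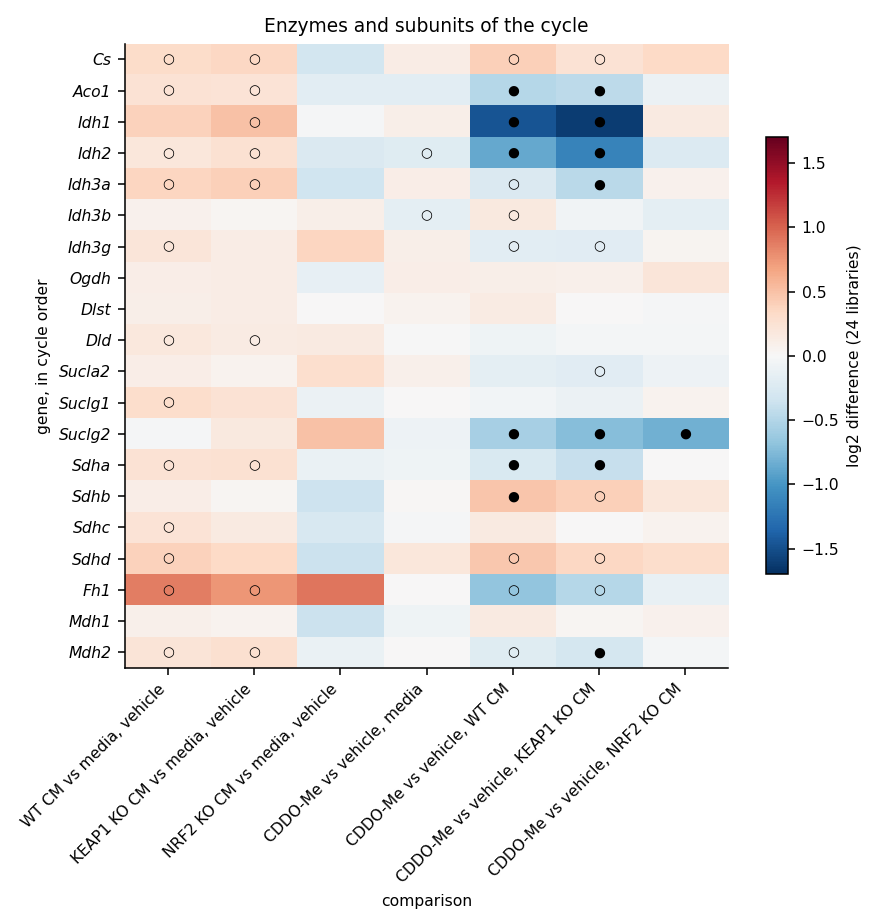
Log2 differences (color, red for higher and blue for lower, fit of 24 libraries) of 20 listed TCA cycle genes in cycle order. The comparisons are CM against media with vehicle and CDDO-Me against vehicle in each medium. The listed genes include those of the cytosolic enzymes Aco1 and Idh1. Filled circles mark an adjusted p under 0.05 with 24 libraries and open circles only with 22, and the strongest blue cells are Idh1 (-1.47 and -1.61) and Idh2 (-0.88 and -1.13) with CDDO-Me in WT CM and KEAP1 KO CM.

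Of 20 tested genes that feed or drain the cycle, 3 were higher and 5 lower with CDDO-Me in both WT CM and KEAP1 KO CM (4 and 6 higher with 22 libraries). Got2, the mitochondrial aspartate aminotransferase, rose by 0.60 and 0.61. Acss2, the cytosolic acetyl-CoA synthetase, rose by 1.40 and 1.68, whereas its mitochondrial counterpart Acss1 fell (-1.37 and -1.51). The pyruvate dehydrogenase phosphatase subunits Pdp1 (-1.12 and -1.10) and Pdp2 (-0.88 and -0.96) and the E1 subunit Pdha1 (-0.25 and -0.47) were lower, as was Acly, ATP citrate lyase (-0.43 and -0.64).

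The carriers gave 1 higher and 2 lower of 7 in each of these media, and with 22 libraries 1 and 2 higher and 3 lower. The mitochondrial aspartate-glutamate carriers moved apart, Slc25a12 rising by 1.41 and 1.32 and Slc25a13 falling (-1.08 and -1.11), and the citrate carrier Slc25a1 fell by 0.60 in both. With vehicle, Slc25a1 was higher with WT CM and KEAP1 KO CM than in media, by 0.44 and 0.57 log2 units. Acss2, which rose by 4.19, Acss1 (-0.94) and Slc25a13 (-0.67) also passed with CDDO-Me in media, where Acod1 and the TCA genes did not pass with 24 libraries.

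Among 8 tested genes of a list on itaconate and succinate, 4 rose and 1 fell with CDDO-Me in WT CM and in KEAP1 KO CM (2 fell in WT CM with 22 libraries). The interferon-response transcription factors Irf1 (3.69 and 3.86) and Irf8 (2.36 and 2.22) rose, as did Nfkbiz (1.85 in both), which encodes a nuclear I-kappa-B protein. Atf3, a stress-response factor linked to itaconate derivatives, fell (-0.92 and -0.65). In NRF2 KO CM 0 of the 8 passed, and in media 1 did, Nfkbiz, which fell by 0.76 (3 fell in media with 22 libraries). Of 7 listed target genes of NRF2, 7 rose with CDDO-Me in media, KEAP1 KO CM and NRF2 KO CM and 6 in WT CM (7 with 22 libraries).

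Mitochondrial housekeeping genes were counted beside the cycle. Of 7 tested, 0 were higher and 1 lower with CDDO-Me in WT CM and 0 higher and 2 lower in KEAP1 KO CM (4 lower with 22 libraries), with medians of -0.12 and -0.31 log2 units. Hspd1, the mitochondrial chaperonin, fell (-0.56 and -0.72 log2 units) in these media. Mitochondrially encoded transcripts took 1.54% to 2.08% of TPM in the CDDO-Me libraries of WT CM and KEAP1 KO CM against 2.50% to 3.32% in their vehicle libraries, and their part in the values of the 9 genes was not tested.

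The genes most like each of the 9 across 24 libraries were found by Pearson's r of the log2 values. For Acod1 they were Nod2 (r = 0.98), Acsl1 (0.98), Icam1 (0.97), Sppl2a (0.97) and Fam131b (0.97). For Cs they included Cox5a (0.98), Mrps34 (0.97), Prpf31 (0.97) and Pgap2 (0.96), and Idh2 was most like Hmgn1 (0.95), Mcm2 (0.94) and Srm (0.94). Idh3a and Mdh2 were each other's nearest gene (0.95, and 0.95 after group means were removed). Aco1 was nearest to Gusb (0.94), Sdha to Prkaca (0.95), Sdhb to Actr1a (0.96) and Ogdh to Psmd4 (0.90). Acod1 and Idh2 ran opposite over the 24 libraries (r = -0.84) but hardly within groups (-0.16). These values are descriptions over libraries that share groups and the libraries standing apart.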

How the data were processed

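RNA sequencing libraries (poly-A) of 24 BMDM cultures were grouped by the sample labels. Per the labels, the authors quantified reads with kallisto by pseudo-alignment to mouse build GRCm39, and deposited 1 gene table of length-scaled TPM without read counts, whose columns each sum to nearly the same total (999365 to 999801). From it, named genes above 1 TPM in at least 3 of 24 libraries were kept, TPM were scaled by trimmed means of log ratios (30% and 5% trimmed), and log2(scaled TPM + 1) was fitted over all 8 groups with limma 3.58.1 (R 4.3.3, trended variance, 16 residual degrees of freedom), with two-sided Benjamini-Hochberg adjusted p-values and a threshold of 0.05. The line with no gene name held 0.02% to 0.06% of TPM. Scripts were tested on simulated data.

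The members, gene lists and tests were chosen with earlier results of these data known. The text names all 9 members, the cycle enzymes, and of the other lists the genes with the smallest adjusted p, plus some, and the within-library ratios, chosen after their values were seen. Lists covered further cycle enzymes, entry and exit, carriers, assembly factors, itaconate and succinate, mitochondrial housekeeping, iron, NRF2 targets and cell type markers. Replicate numbers are shared between groups. Deviations of same-numbered libraries from their group means correlated over 0.1 in 71 of 84 pairs (mean r 0.256, lowest 0.023). They did so in all 3 pairs in 8 of the 14 comparisons of 2 groups. In these 8, a replicate block changed no call of a member. Alternatives were other scalings, filters, pseudocounts, array weights, the block, the compared groups alone, and leaving out libraries. Values of a few listed genes are not reported here.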

Additional observations from a re-analysis of the deposited data

Results flagged for a closer look

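The tests of a difference between CDDO-Me effects passed for 4 results. For Acod1, the effect in WT CM exceeded that in media by 4.24 log2 units and that in NRF2 KO CM by 3.53, and the effect in KEAP1 KO CM exceeded that in media by 5.82. For Idh2, the effect in KEAP1 KO CM was below that in media, with a difference of -0.93. No group of 3 libraries was tested for an outlying library, although Acod1 at 331 TPM in KEAP1 KO CM/CDDO-Me replicate 1, against 59.0 and 60.5 TPM, is the widest spread seen among the 9 genes in a group with CDDO-Me.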

How the results depend on the processing

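No member's direction reversed among calls. Of the repeats of single calls, 523 kept the call and 79 did not, and of the repeats of counts 305 stayed within 1.5 times and 48 did not. The calls of Aco1, Acod1 and Idh2 with CDDO-Me in WT CM and KEAP1 KO CM held in every alternative. The number of reads behind each library cannot be read from TPM, and 3 libraries a group limit the precision.

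Counts of the 9 genes that moved were as follows. Without scaling, 2 genes were called for WT CM against NRF2 KO CM with vehicle and 2 for WT CM against media with CDDO-Me. Without a filter, 0 were called for CDDO-Me in NRF2 KO CM, and with a pseudocount of 0.1, 1 (Acod1) for CDDO-Me in media. With array weights, the counts were 6 and 7 for WT CM and KEAP1 KO CM against media with vehicle, 2, 8 and 3 for CDDO-Me in media, WT CM and NRF2 KO CM, 1 for NRF2 KO CM against media and 1 for KEAP1 KO CM against WT CM with CDDO-Me, and 6, 7 and 6 for the CDDO-Me effects (WT CM against media, KEAP1 KO CM against media, WT CM against NRF2 KO CM). The shares of all genes called with array weights were, in the same order, 30.1% and 36.7%, then 25.8%, 52.2% and 20.4%, then 5.52% and 1.92%, then 39.6%, 39% and 32.9%. With the 2 libraries standing apart left out, they were 6 and 6 for WT CM and KEAP1 KO CM against media with vehicle, 1, 8 and 0 for CDDO-Me in media, WT CM and NRF2 KO CM, and 5, 6 and 4 for the CDDO-Me effects in the same order. With the compared groups alone, they were 4 and 4 against media, 0 and 0 against NRF2 KO CM with vehicle, 0 for CDDO-Me in NRF2 KO CM, and 5 and 5 for the effects against media, where 16.7% and 17.9%, 1.35% and 1.07%, 1.10%, and 27.7% and 26.1% of all genes were called. The cause was not tested. For the fits without scaling, without a filter, with the pseudocount or without 1 library, the share of all genes called is not given. Whether those counts moved with the calls of all genes can therefore not be read from them. Without scaling, the share of higher genes among all calls also went from 60.6% to 48.2% for WT CM against media and from 64.5% to 44.2% for WT CM against NRF2 KO CM with vehicle, from 52.3% to 33.6% and from 53.5% to 37.4% for WT CM and KEAP1 KO CM against media with CDDO-Me, and from 55.2% to 40.5% for the effect in KEAP1 KO CM against media.

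With the replicate number as a block, 1 gene was called for KEAP1 KO CM against media and 8 for WT CM against NRF2 KO CM with vehicle, and 2 and 2 for the CDDO-Me effects of WT CM against media and against NRF2 KO CM, where 13.1%, 18.7%, 21.2% and 18.9% of all genes were called. Cs with CDDO-Me in WT CM also passed (adjusted p = 0.045). In the comparisons of 2 groups among these, CDDO-Me in WT CM included, 2 of 3 same-numbered pairs correlated over 0.1. The mean r of these pairs was 0.243 for KEAP1 KO CM against media and 0.145 for WT CM against NRF2 KO CM with vehicle. For CDDO-Me in WT CM it was 0.257, so the numbers were partly paired here too. With single libraries left out, counts ranged from 2 to 7 for WT CM against NRF2 KO CM with vehicle, from 3 to 4 for CDDO-Me in WT CM (3 without WT/vehicle replicate 2 or WT CM/CDDO-Me replicate 1), from 0 to 1 for CDDO-Me in NRF2 KO CM, from 2 to 3 for WT CM against media with CDDO-Me, and from 1 to 2 for the CDDO-Me effect in WT CM against NRF2 KO CM, with 2 without NRF2 KO/vehicle replicate 2 or 3 or NRF2 KO CM/CDDO-Me replicate 3.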
